A study of Mus musculus with 10 samples.

Results

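R-loops are three-stranded structures in which a nascent RNA pairs with its DNA template and leaves the other DNA strand unpaired, and they are removed or prevented by nucleases, helicases, topoisomerases and RNA-processing factors. RNase H1 and the three-subunit enzyme RNase H2 cut the RNA of a hybrid, DHX9 unwinds it, TOP1 relaxes the negative supercoiling behind the polymerase in which hybrids form, and XRN2 and SRSF1 act on the nascent transcript. DDX41 is a DEAD-box RNA helicase that has itself been linked to splicing and to R-loop levels in blood progenitors, and Ddx41 is the gene deleted on one allele here.

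The 8 R-loop resolving genes described are Rnaseh1, Rnaseh2a, Rnaseh2b, Rnaseh2c, Dhx9, Top1, Xrn2 and Srsf1. They were chosen by symbol for the roles of their products, and they are 8 of the 24421 genes in the count table. All 8 passed the filter on low counts, which kept 11846 genes.

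The libraries were made from CD71+Ter119+ R2 cells, immature nucleated red cell precursors, sorted from the bone marrow of 10 mice, with RNA from about 100000 cells per mouse and one library each. Lethally irradiated BoyJ recipients had been given 1000000 bone marrow mononuclear cells from donors that all carried Rosa26-CreERT2, a ubiquitously expressed Cre recombinase that is active only with tamoxifen. All recipients were given 1 mg of tamoxifen on 5 consecutive days in 2 rounds, controls included, and the marrow was taken 8 weeks after transplantation. The groups were Ddx41+/+ Trp53+/+ (3 mice, numbers 10, 11 and 12), Ddx41+/- Trp53+/+ (2 mice, 32 and 34), Ddx41+/+ Trp53+/- (3 mice, 22, 23 and 24) and Ddx41+/- Trp53+/- (2 mice, 46 and 47). Ddx41+/- donors carried one floxed allele that Cre removes after transplantation, and Trp53+/- donors carried one germline knockout allele. The name of the deposited table refers to the removal of 35 and 45, numbers that none of these mice carries. What they were and why they were removed is not given in the sources used here, and they were not analysed here. The sort used CD71 and Ter119, with no step named that separates donor cells from remaining host cells, and the ages of the mice were not given. The recipient mouse is the replicate, and whether mice of a group shared a donor was not stated, so the p-values measure the spread between these recipients.

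Each library held between 7866648 and 20283930 counts assigned to genes, and the smallest was that of Ddx41+/- Trp53+/+ mouse 34. Levels are given as CPM, counts relative to the library's total, scaled by the TMM method, which sets the libraries to a common level over most genes. In bulk RNA of this kind, fewer cells of a type and less RNA per cell cannot be told apart.

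The erythroid identity of the sorted cells was checked on marker genes. Slc4a1, the band 3 anion exchanger of the red cell membrane, averaged 27928 CPM, and Alas2, the erythroid enzyme of haem synthesis, averaged 7920 CPM. The haemoglobin genes, which such cells transcribe heavily, took at most 0.000582% of the counts in any library, and Hbb-bt and Hbb-b2 were at 0 in all 10. How globin transcripts were handled before or during counting is not given in the sources used here. Markers of other marrow cells were also present, with neutrophil genes summing to 4530 to 7755 CPM over the 10 libraries, B cell genes to 204 to 479 CPM, macrophage genes to 223 to 528 CPM and T and NK cell genes to 7.97 to 19.6 CPM.

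The targeted genes followed the labels. Ddx41 stood at 25.1, 21.9 and 22.6 CPM in the Ddx41+/+ Trp53+/+ mice and at 13.8 and 16.5 CPM in the Ddx41+/- Trp53+/+ mice, and at 26.6, 22.9 and 23.2 CPM against 12.5 and 15.6 CPM in the Trp53+/- pair of groups. No Ddx41+/- mouse reached the lowest Ddx41+/+ mouse. The Ddx41 difference did not pass within either background (log2 fold change −0.63, adjusted p = 0.0887 with Trp53+/+, and −0.78, adjusted p = 0.177 with Trp53+/-, edgeR). Over both Trp53 genotypes Ddx41 fell by 0.70 on the log2 scale (SE 0.11, adjusted p = 0.0173, edgeR quasi-likelihood test with Benjamini-Hochberg adjustment over all tested genes). Trp53 was at 57.4, 57.4, 58.9, 59.2 and 68.1 CPM in the 5 Trp53+/+ mice and at 43.1, 41.8, 44.5, 40.3 and 46.2 CPM in the 5 Trp53+/- mice, again without overlap.

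To place the genes on the genome, GENCODE M21 on GRCm38, the same build as mm10, was used. Rnaseh1 lies at chr12:28649602-28659589, Rnaseh2a at chr8:84956610-84969767, Rnaseh2b at chr14:62292589-62372992 and Rnaseh2c at chr19:5601873-5607019. Dhx9 lies at chr1:153455758-153487660, Top1 at chr2:160645888-160722764, Xrn2 at chr2:147012996-147078000 and Srsf1 at chr11:88047373-88053755. All encode proteins, and Rnaseh2a and Dhx9 are on the minus strand. Rnaseh2a shares 154 exonic bases with Prdx2 on the opposite strand and 339 with the predicted gene Gm49661 on its own strand. On opposite strands, Rnaseh2c shares 426 exonic bases, 37.8% of its length, with Kat5, and Srsf1 shares 98 with Gm11508. The strand setting of the counting is not given in the sources used here, so reads in the opposite-strand stretches cannot be assigned to one gene with certainty, and strand cannot separate Rnaseh2a from Gm49661 in any case.

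The proximal promoter is shown for Rnaseh2c, a structural subunit of RNase H2. RefSeq sequences of GRCm38.p6 were used for 5 of the 8 genes, Rnaseh2c, Dhx9, Top1, Xrn2 and Srsf1. The 250 bases before the first RefSeq start site were searched on both strands for the CCAAT box, the GC box with the letters GGGCGG, the E2F-type sites TTTCCCGC and TTTGGCGC, the GATA-type site AGATAA and the p53 half-site. Capitals would mark any of these but the last.
The 250 bases before Rnaseh2c, on the plus strand at chr19:5601623-5601872, held none of the motifs and therefore show no capitals.
Rnaseh2c, 250 bases: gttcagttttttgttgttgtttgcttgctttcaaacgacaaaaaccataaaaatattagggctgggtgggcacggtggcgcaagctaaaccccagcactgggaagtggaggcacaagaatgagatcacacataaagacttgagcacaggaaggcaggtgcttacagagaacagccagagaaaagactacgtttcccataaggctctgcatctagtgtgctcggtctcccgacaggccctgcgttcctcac
CCAAT was present in 33.8% of the 32851 promoters in the RefSeq table over the same length, GGGCGG in 32.7%, AGATAA in 9.99%, the p53 half-site in 7.13%, TTTCCCGC in 0.895% and TTTGGCGC in 0.417%. Among the other 4 genes, GGGCGG was found before Dhx9, Top1 and Srsf1, TTTGGCGC and the p53 half-site before Dhx9 and TTTCCCGC before Srsf1. These matches describe the letters in the windows only.

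The 8 genes differed widely in level and little between mice. Per kilobase of exon, the mean over the 10 mice was 91.8 CPM per kb for Srsf1 (SD 4.54), 90.8 for Top1 (SD 4.14), 78.9 for Rnaseh2c (SD 5.78), 72.4 for Dhx9 (SD 4.67), 62.0 for Rnaseh2b (SD 4.30), 26.1 for Rnaseh2a (SD 3.64), 13.3 for Xrn2 (SD 1.18) and 3.22 for Rnaseh1 (SD 0.381). Srsf1 and Top1 overlapped in range, as did Top1 with Rnaseh2c, Rnaseh2c with Dhx9 and Dhx9 with Rnaseh2b, whereas Rnaseh2a, Xrn2 and Rnaseh1 were each separated from their neighbours in every mouse. With the transcript that has the longest coding sequence in place of all exons, the order was the same, but Srsf1 stood at 422 CPM per kb because that transcript is 1209 bases against 5558 for all its exons.

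**Figure D1:**
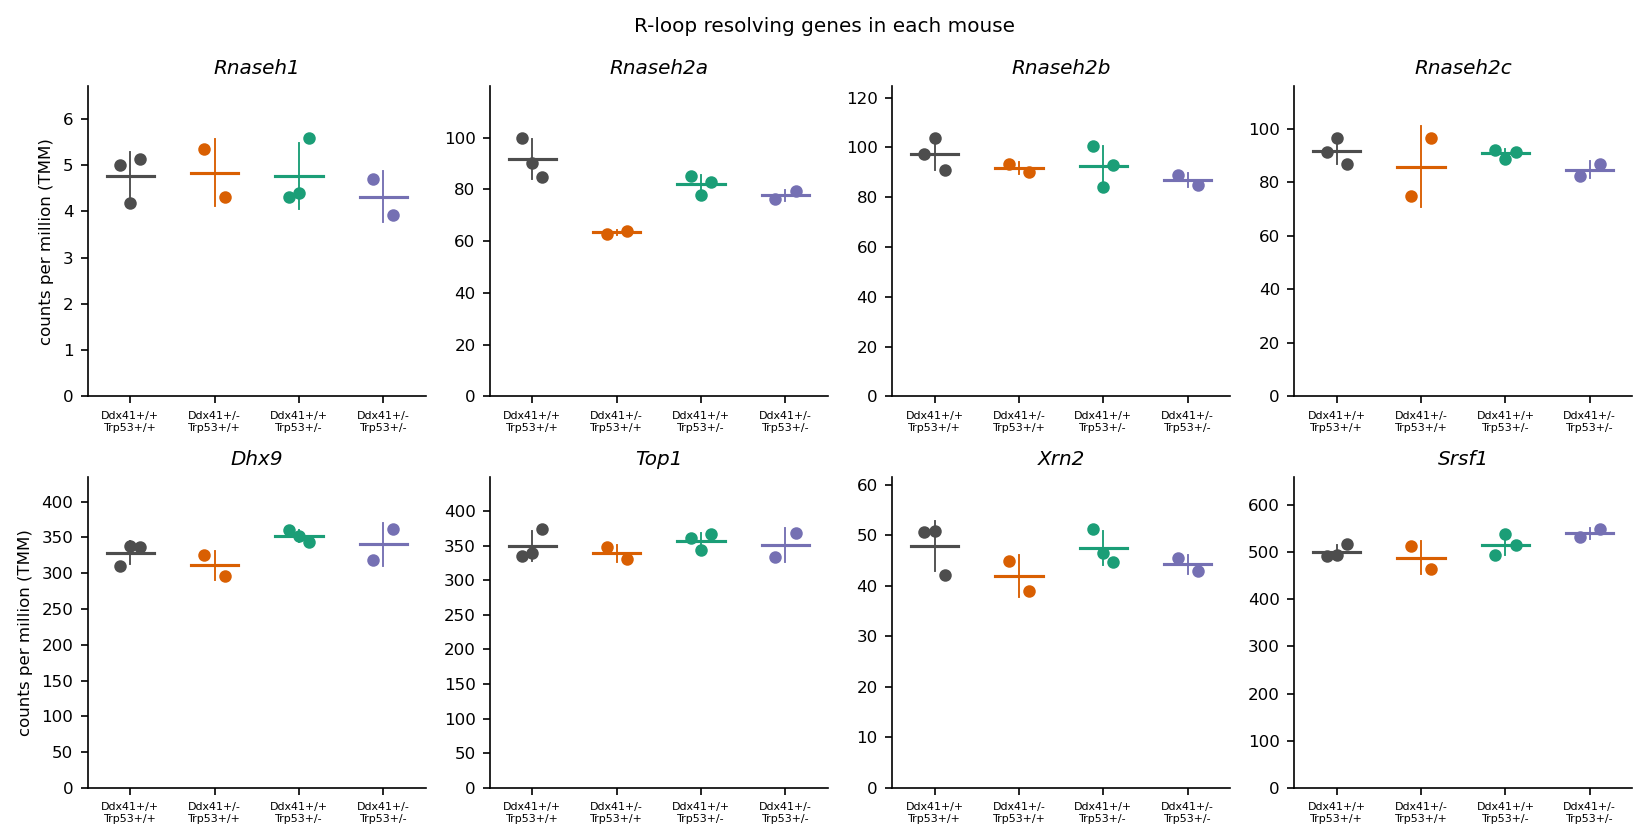
TMM-scaled CPM (vertical axes from 0) of each of the 8 genes in each of the 10 mice, grouped by genotype; points are mice, horizontal lines are group means and vertical lines are 1 SD. Rnaseh2a is the only one of the 8 genes for which both Ddx41+/- Trp53+/+ mice (62.7 and 64.0 CPM) sit below all other mice (76.3 to 99.9 CPM).

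The question of whether loss of one Ddx41 allele goes with altered transcription of R-loop resolving genes was first addressed in mice with intact Trp53. No member passed both limits that define a differentially expressed gene (DEG), an adjusted p under 0.05 and a change of more than 1.5-fold, in edgeR or in DESeq2, in a comparison in which 0.54% of all tested genes did so in edgeR. At an unadjusted p under 0.05, 1 member passed, against 9.64% of all tested genes. One member, Rnaseh2a, passed the adjusted p alone and was lower in the Ddx41+/- mice, where 0.219% of all tested genes were lower by that rule. It was also the only member whose values did not overlap between the groups, a pattern that 12.1% of all tested genes showed in the lower direction. Across the 8 genes, 7 were lower and 1 was higher in sign, with a median log2 fold change of −0.08 against 0.00 over all tested genes.

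RNase H1 removes longer hybrids in nucleus and mitochondria as a single polypeptide, and its gene was the most weakly expressed of the 8. Rnaseh1 was at 5.01, 4.18 and 5.12 CPM in the Ddx41+/+ Trp53+/+ mice and at 5.35 and 4.32 CPM in the Ddx41+/- Trp53+/+ mice. In the Ddx41+/+ Trp53+/- mice it was at 4.30, 4.39 and 5.59 CPM, and in the Ddx41+/- Trp53+/- mice at 4.71 and 3.93 CPM. All 4 groups overlapped. The log2 fold change with Trp53+/+ was 0.04, and its 95% interval, −0.50 to 0.58, was the widest of the 8, since only 34 to 96 counts per library fell on this gene. It was −0.14 without mouse 32 and 0.17 without mouse 34. For Rnaseh1, changes within that interval could not be told from none with these mice and counts.

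RNase H2 consists of a catalytic subunit, RNASEH2A, and the structural subunits RNASEH2B and RNASEH2C, and it also removes single ribonucleotides from DNA. Rnaseh2a was at 99.9, 90.2 and 84.9 CPM in the Ddx41+/+ Trp53+/+ mice and at 62.7 and 64.0 CPM in the Ddx41+/- Trp53+/+ mice. In the Trp53+/- background it was at 85.1, 77.8 and 83.0 CPM in the Ddx41+/+ mice and at 76.3 and 79.2 CPM in the Ddx41+/- mice. Both Ddx41+/- Trp53+/+ mice lay below every other mouse, and the Ddx41+/- Trp53+/- mice stood on either side of the lowest of their controls. With Trp53+/+ the difference was −0.53 on the log2 scale (SE 0.093, 95% interval −0.73 to −0.34, adjusted p = 0.0117, edgeR quasi-likelihood test), or 1.45-fold lower. The log2 fold change was −0.52 without mouse 32 and −0.55 without mouse 34, the 2 mice of the Ddx41+/- Trp53+/+ group. Rnaseh2a did not pass the adjusted p in either refit. Each refit left 1 mouse in that group, so the spread came from the other groups only. The log2 fold change grew to −0.59 and passed the 1.5-fold limit (adjusted p = 0.00753) without Ddx41+/+ Trp53+/+ mouse 12.

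The partner subunits did not show this difference. Rnaseh2b was at 97.2, 103.8 and 90.9 CPM in the Ddx41+/+ Trp53+/+ mice and at 93.3 and 89.9 CPM in the Ddx41+/- Trp53+/+ mice, with a log2 fold change of −0.09 (95% interval −0.29 to 0.11, adjusted p = 0.844 in edgeR), which was −0.03 without mouse 11 and −0.13 without mouse 12. Rnaseh2c was at 91.5, 96.5 and 86.9 CPM against 75.1 and 96.7 CPM, with a log2 fold change of −0.10 (95% interval −0.32 to 0.11, adjusted p = 0.822 in edgeR), which turned to 0.07 without mouse 32 and was −0.29 without mouse 34. The 2 Ddx41+/- mice thus bracketed the Ddx41+/+ range for Rnaseh2c, mouse 32 being the lowest and mouse 34 the highest. The Trp53+/- mice stood at 100.6, 84.2, 92.8, 88.7 and 84.7 CPM for Rnaseh2b and at 92.1, 88.9, 91.3, 82.4 and 87.0 CPM for Rnaseh2c, the last 2 values of each being the Ddx41+/- mice.

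Because the subunits work in one complex, their counts were also compared within each library, where the scaling between libraries drops out. The ratios were chosen after the data were seen and use the same Rnaseh2a counts. They are therefore not independent of the difference above. The ratio of Rnaseh2a to Rnaseh2b counts was 1.03, 0.869 and 0.934 in the Ddx41+/+ Trp53+/+ mice and 0.672 and 0.712 in the Ddx41+/- Trp53+/+ mice. The ratio of Rnaseh2a to Rnaseh2c was 1.09, 0.935 and 0.977 against 0.835 and 0.662. Both ratios were without overlap, and with 3 mice against 2 the two-sided exact permutation test gave p = 0.1 for each, the smallest value it can give. In the Trp53+/- background the 2 ratios were 0.846, 0.924 and 0.895 against 0.860 and 0.934, and 0.924, 0.876 and 0.909 against 0.925 and 0.910, which overlapped (exact permutation p = 0.8 and 0.5). Rnaseh2a made up 31.1% to 34.6% of the counts of the 3 subunit genes in the Ddx41+/+ Trp53+/+ mice, 27.1% and 25.5% in the Ddx41+/- Trp53+/+ mice and 30.6% to 31.6% in the 5 Trp53+/- mice.

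**Figure D2:**
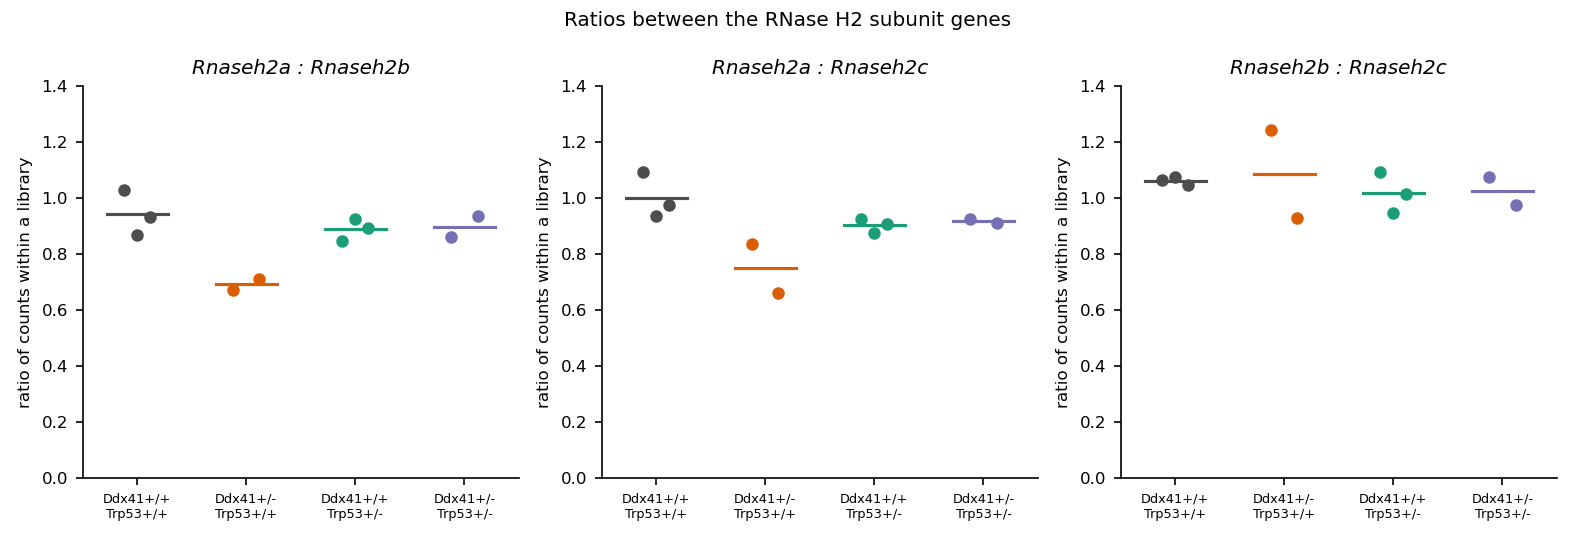
Ratio of counts within each library (vertical axes from 0) for the 3 pairs of RNase H2 subunit genes, by genotype; points are mice and lines are group means. The ratios of Rnaseh2a to Rnaseh2b and to Rnaseh2c are lowest in the 2 Ddx41+/- Trp53+/+ mice, with a mean of 0.692 against 0.943 for the first ratio, while Rnaseh2b to Rnaseh2c is near 1 in all groups (group means 1.02 to 1.09).

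Of the remaining genes, DHX9 is a helicase that unwinds RNA-DNA hybrids. Dhx9 was at 310, 338 and 337 CPM in the Ddx41+/+ Trp53+/+ mice and at 325 and 296 CPM in the Ddx41+/- Trp53+/+ mice, with a log2 fold change of −0.08 (95% interval −0.24 to 0.09), which was −0.16 without mouse 32 and −0.01 without mouse 34. TOP1 relaxes supercoiled DNA, and Top1 was at 335, 339 and 374 CPM against 348 and 331 CPM (log2 fold change −0.04, 95% interval −0.20 to 0.12, between −0.08 without mouse 32 and 0.01 without mouse 12). Both genes overlapped between the groups, and the intervals leave out changes as large as 1.5-fold in either direction.

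XRN2 is the nuclear exonuclease that degrades RNA downstream of the cleavage site at termination. Xrn2 was at 50.7, 50.9 and 42.2 CPM in the Ddx41+/+ Trp53+/+ mice and at 44.8 and 39.0 CPM in the Ddx41+/- Trp53+/+ mice, with a log2 fold change of −0.19 (95% interval −0.44 to 0.06, adjusted p = 0.665 in edgeR). It was −0.30 without mouse 32 and −0.10 without mouse 34, so its size rests on which of the 2 Ddx41+/- mice was used. SRSF1 is a splicing factor that coats nascent RNA, and Srsf1 was at 492, 493 and 516 CPM against 512 and 464 CPM (log2 fold change −0.03, 95% interval −0.18 to 0.11, and −0.11 without mouse 32 or 0.04 without mouse 34). The values of both genes overlapped between the groups.

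The same contrast was then made in mice heterozygous for Trp53. No member passed in the Ddx41+/- Trp53+/- mice against Ddx41+/+ Trp53+/- mice, by adjusted p alone or with the fold limit, in a comparison in which 0.0422% of all tested genes passed either rule in edgeR. DESeq2 gave 0 DEGs among the members as well, and 0 had an unadjusted p under 0.05 in edgeR, against 3.75% of all tested genes. In sign, 7 members were lower and 1, Srsf1, was higher, with a median log2 fold change of −0.08 against −0.01 over all tested genes. Rnaseh2c was the only member without overlap (lower), and 10.8% of all tested genes were lower without overlap. Rnaseh2a differed by −0.08 (SE 0.091, 95% interval −0.27 to 0.12). The Xrn2 values were 51.2, 46.4 and 44.6 CPM against 45.5 and 43.0 CPM, and the Dhx9 values 360, 352 and 343 CPM against 319 and 361 CPM. Top1 stood at 360, 344 and 367 CPM against 334 and 368 CPM, and Srsf1 at 493, 538 and 514 CPM against 531 and 548 CPM.

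The difference between the 2 Ddx41 effects was tested as an interaction term. For Rnaseh2a it was 0.46 on the log2 scale (SE 0.129, unadjusted p = 0.00267, adjusted p = 0.557, edgeR quasi-likelihood test), which did not pass over all tested genes. No member passed this test in edgeR or DESeq2, 0.0675% of all tested genes passed it in edgeR, and Rnaseh2a was the only member with an unadjusted p under 0.05, against 5.01% of all tested genes. The other 7 members had interaction terms between −0.19 (Rnaseh1) and 0.10 (Srsf1).

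With both Trp53 backgrounds in one additive edgeR fit, no member passed either rule. In that fit 0.11% of all tested genes were DEGs and 0.144% passed by adjusted p alone. DESeq2 also gave 0 DEGs among the members. At an unadjusted p under 0.05, 1 member passed, against 8.98% of all tested genes. Rnaseh2a differed by −0.30 (SE 0.084, unadjusted p = 0.00264, adjusted p = 0.270, edgeR). Over 16 alternative settings its log2 fold change lay between −0.35 and −0.23. Rnaseh2a passed the adjusted p alone in at least 1 of these settings but not in all. The exact permutation test over mice within each Trp53 genotype, two-sided, gave p = 0.02 for Rnaseh2a with 100 arrangements and a smallest possible p of 0.01. The other 7 members had exact permutation p between 0.11 (Xrn2) and 0.71 (Srsf1), while Ddx41 itself reached 0.01. These 8 tests cover the same values as the fit and are not adjusted over the list.

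**Figure D3:**
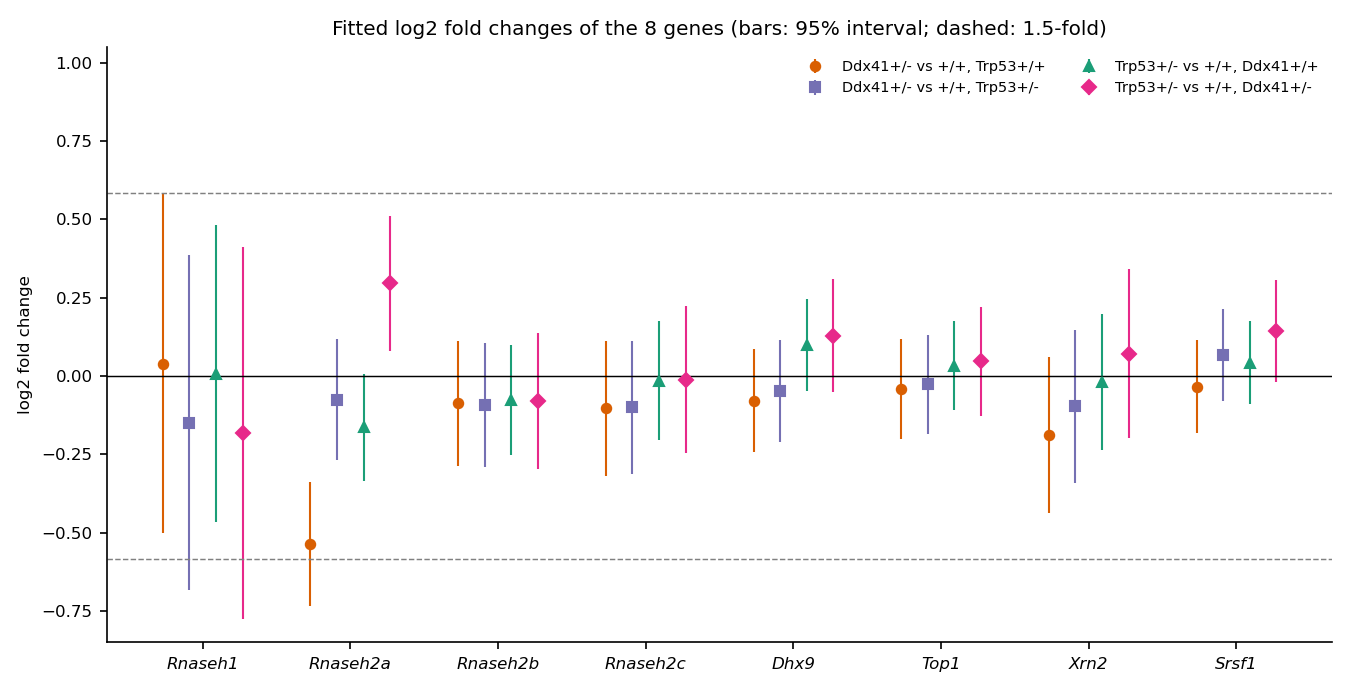
Log2 fold changes of the 8 genes in 4 comparisons (symbols) from one fit over 10 mice, with bars for the 95% interval and dashed lines at 1.5-fold in either direction. The interval of Rnaseh2a for Ddx41+/- against Ddx41+/+ with Trp53+/+ (−0.73 to −0.34) lies away from 0, and with Trp53+/- it (−0.27 to 0.12) spans 0.

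The Trp53 comparisons use the same mice from the other side, so the Ddx41 and Trp53 contrasts share samples and their values are not independent. In Trp53+/- against Trp53+/+ mice with Ddx41+/+, 0 members passed in edgeR or DESeq2, against 0.912% of all tested genes as DEGs and 0.988% by adjusted p alone in edgeR. At an unadjusted p under 0.05, 0 members passed, against 9.44% of all tested genes. The 8 genes split into 4 higher and 4 lower in sign, from −0.16 (Rnaseh2a) to 0.10 (Dhx9), and Dhx9 was the only one without overlap (higher, 7.58% of all tested genes). With Ddx41+/-, 0 members passed in edgeR or DESeq2, against 0.169% of all tested genes as DEGs and 0.177% by adjusted p alone in edgeR, and 1 had an unadjusted p under 0.05, against 5.41% of all tested genes. Rnaseh2a was higher in both Ddx41+/- Trp53+/- mice than in both Ddx41+/- Trp53+/+ mice (log2 fold change 0.30, SE 0.101, adjusted p = 0.638 in edgeR). Srsf1 (0.14) was also higher and Rnaseh2b (−0.08) lower without overlap, with 18.8% and 18.5% of all tested genes doing so in those directions with 2 mice against 2. Over both Ddx41 genotypes no member passed in edgeR or DESeq2, with 0.287% of all tested genes as DEGs and 0.439% by adjusted p alone. Dhx9 was the only member with an unadjusted p under 0.05, against 11.2% of all tested genes. Its log2 fold change was 0.11 (SE 0.0516, adjusted p = 0.443 in edgeR).

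Rnaseh2a was then set beside its neighbours on chromosome 8; the neighbours named here were chosen after their values were seen. Of the 11 other tested genes whose bodies reach within 100 kb of either end of Rnaseh2a, 2 passed the adjusted p with Trp53+/+. Gcdh, a mitochondrial enzyme of lysine breakdown whose centre is 73.0 kb from that of Rnaseh2a, was at 81.5, 94.5 and 85.6 CPM in the Ddx41+/+ Trp53+/+ mice and at 34.9 and 35.7 CPM in the Ddx41+/- Trp53+/+ mice. It fell by 1.31 on the log2 scale (SE 0.11, adjusted p = 4.64e-06, edgeR), and its interaction with Trp53 genotype also passed (1.32, adjusted p = 3.87e-04). Junb, an AP-1 transcription factor gene, rose by 0.58 (adjusted p = 0.0153). Prdx2, which overlaps Rnaseh2a on the other strand and encodes an abundant red cell peroxiredoxin, was at 3964, 3870 and 3720 CPM against 3459 and 3534 CPM, with a log2 fold change of −0.14 (adjusted p = 0.492).

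Within 5 Mb on either side, 7 of 78 tested neighbours passed the adjusted p in that comparison, or 8.97%, against 0.625% of all tested genes. They were Tbc1d9, Clgn and Junb, which were higher, and Prkaca, Gcdh, Neto2 and Phkb, which were lower. Clgn, which encodes a chaperone known from the testis, had 241 and 121 counts in the 2 Ddx41+/- Trp53+/+ libraries and between 1 and 8 counts in each of the other 8. Tbc1d9 was at 20.7 and 19.8 CPM in those 2 mice and between 2.96 and 7.01 CPM in the rest, and Neto2 at 5.23 and 3.68 CPM against 11.8 to 14.6 CPM. For these 3 genes the same 2 mice stood apart from all others, but not for Junb, where mouse 32 (181 CPM) was below Ddx41+/+ Trp53+/- mouse 24 (186 CPM) and Ddx41+/- Trp53+/- mouse 46 (195 CPM). With Trp53+/-, 0 of the 78 neighbours passed.

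Chromosome 8 as a whole held 16 of the genes that passed the adjusted p with Trp53+/+, or 2.60% of its 615 tested genes, against 0.613% of the 11427 tested genes with a position. These 16 include Rnaseh2a and its 7 neighbours named above, so this count is not separate from that of the window. In windows of the same width around the other members, 2 of 30 neighbours of Rnaseh1 passed (6.67%, Acp1 and Prkar2b, both lower), 1 of 181 neighbours of Rnaseh2c (0.552%, Ctsw, higher) and none around Rnaseh2b, Dhx9, Top1, Xrn2 or Srsf1. Acp1 was at 175 and 166 CPM in the Ddx41+/- Trp53+/+ mice and between 278 and 332 CPM in the other 8 mice. The donors of these mice and the part of the chromosome in the Rnaseh2a difference were not tested, and genotype and donor cannot be told apart in 2 mice.

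**Figure D4:**
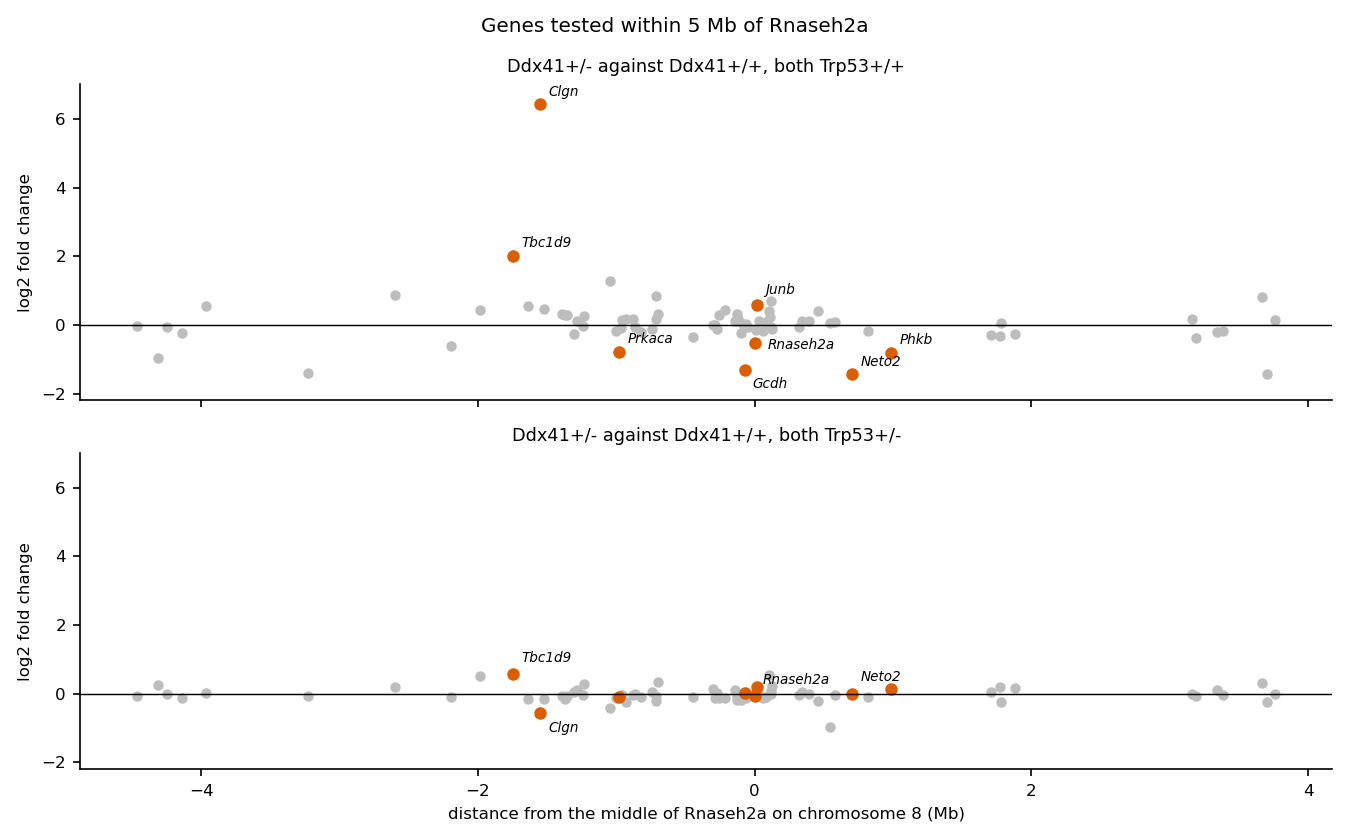
Log2 fold change of Ddx41+/- against Ddx41+/+ (vertical axis) for Rnaseh2a and the 78 other tested genes within 5 Mb, by distance in Mb from the middle of Rnaseh2a; the upper panel is with Trp53+/+ and the lower with Trp53+/-. Orange marks genes with an adjusted p under 0.05 in the upper comparison, among them Clgn (6.44) and Neto2 (−1.44), and in the lower panel the same genes lie between −0.58 and 0.56.

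Gene lists for cell handling, replication and other cell types were recorded beside Rnaseh2a in all 4 groups. Of 18 immediate-early and heat-shock genes, which respond within minutes to cell handling and stress, 16 were higher in sign with Trp53+/+ and 4 passed the adjusted p (Fosb, Junb, Hspa1a and Hspa1b), with a median log2 fold change of 0.50. Their summed level was 3355, 3408 and 3651 CPM in the Ddx41+/+ Trp53+/+ mice and 4523 and 4840 CPM in the Ddx41+/- Trp53+/+ mice, and Hspa8 was the most abundant. In the Trp53+/- mice it was 3778, 3841 and 4496 CPM with Ddx41+/+ and 4435 and 4224 CPM with Ddx41+/-, so the Ddx41+/+ Trp53+/+ mice were the lowest and the Ddx41+/- Trp53+/+ mice the highest of the 10. For Trp53+/- against Trp53+/+ with Ddx41+/+, 15 of the 18 were also higher in sign, with a median of 0.19 and none passing. For Ddx41 with Trp53+/-, 12 were higher and 6 lower in sign, with a median of 0.12 and none passing. Over both Trp53 genotypes, 17 were higher for Ddx41, with a median of 0.31, and 2 passed.

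Of 9 B cell markers, all were higher in sign for Ddx41 with Trp53+/+ (median log2 fold change 1.01) and 2 passed (Cd79a and Ebf1). All 9 were also higher for Trp53+/- against Trp53+/+ with Ddx41+/+ (median 1.25), and 4 passed, Cd79a and Ebf1 among them. For Ddx41 with Trp53+/-, 3 of the 9 were higher and 6 lower in sign (median −0.06), and none passed. Their summed level was 340, 204 and 220 CPM in the Ddx41+/+ Trp53+/+ mice, 337 and 479 CPM in the Ddx41+/- Trp53+/+ mice, 350, 393 and 426 CPM in the Ddx41+/+ Trp53+/- mice and 448 and 388 CPM in the Ddx41+/- Trp53+/- mice. Thus 2 of the 3 Ddx41+/+ Trp53+/+ mice, the controls of the Rnaseh2a difference, were the lowest of the 10. Cd74 was the most abundant, and none of the 9 was at 0 in all libraries.

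Of 10 macrophage markers, 8 were lower in sign for Ddx41 with Trp53+/+ (median −0.16), 10 higher for Ddx41 with Trp53+/- (median 0.52) and 10 lower for Trp53 with Ddx41+/+ (median −0.62), and none passed in any of the 7 comparisons. Their summed level was 528, 284 and 451 CPM in the Ddx41+/+ Trp53+/+ mice, 346 and 438 CPM in the Ddx41+/- Trp53+/+ mice, 308, 280 and 223 CPM in the Ddx41+/+ Trp53+/- mice and 446 and 359 CPM in the Ddx41+/- Trp53+/- mice, with Csf1r the most abundant. The summed T and NK cell markers were at 7.97 to 12.5 CPM in the Ddx41+/+ Trp53+/+ mice and at 13.0 to 19.6 CPM in the other 7 mice. None of the neutrophil, T and NK cell or megakaryocyte markers passed in any of the 7 comparisons.

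The DNA replication genes, like Rnaseh2a, are used in S phase. For Ddx41 with Trp53+/+, 16 of the 20 were lower in sign, with a median log2 fold change of −0.12. With Trp53+/-, 13 were lower and 7 higher in sign, with a median of −0.03. None of the 20 genes passed the adjusted p in either background. Their summed level was 8288, 8997 and 8812 CPM in the Ddx41+/+ Trp53+/+ mice and 7786 and 8098 CPM in the Ddx41+/- Trp53+/+ mice, with the 5 Trp53+/- mice between 7943 and 9224 CPM, and Rrm2, a subunit of ribonucleotide reductase, was the most abundant. The erythroid markers had a median of −0.04 over 10 tested genes with Trp53+/+, and none passed. The part of any of these lists in the Rnaseh2a result was not tested.

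Other genes of the R-loop pathways were examined from lists of their roles. Among 23 genes listed as other R-loop helicases, none passed with Trp53+/+, 20 were lower and 3 higher in sign, and the median was −0.16. With Trp53+/-, 13 were lower and 10 higher in sign, and the median was −0.03. The list holds the deleted gene Ddx41, which is among the 20, and Mcm3ap, which encodes an mRNA export factor and not a helicase. Over both Trp53 genotypes Ddx41 was the only one of the 23 that passed. Ddx5, the most abundant at 973 CPM on average, differed by 0.10 with Trp53+/+ and 0.12 with Trp53+/-, and Ddx18 by −0.18 and −0.33.

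Among 8 other topoisomerases and their partners none passed in any of the 7 comparisons. Top2a, the replication-linked topoisomerase II, was at 1292, 1411 and 1323 CPM in the Ddx41+/+ Trp53+/+ mice and at 1152 and 1068 CPM in the Ddx41+/- Trp53+/+ mice, lower without overlap as were 12.1% of all tested genes, and its log2 fold change was −0.27 (adjusted p = 0.0794, edgeR). With Trp53+/- it was 0.00. None of 15 THO and mRNA export factors (median 0.00 with Trp53+/+), 18 SR proteins and splicing factors (−0.04) or 17 termination and RNA exosome genes (−0.05) passed in any of the 7 comparisons.

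Of 20 repair factors that protect hybrids and replication forks, 1 passed with Trp53+/+. Ercc6, the transcription-coupled repair protein CSB, rose by 0.75 (adjusted p = 0.0498, edgeR) there and differed by 0.25 with Trp53+/-, while the list as a whole had 12 of 20 lower in sign and a median of −0.14. The 13 genes that act with RNase H2 in ribonucleotide excision repair, such as Pcna at 979 CPM and Lig1 at 551 CPM, had a median of −0.08 and none passed. Of 9 genes outside RNase H2 that are linked to Aicardi-Goutières syndrome or sense the nucleic acids involved, none passed, with medians of −0.01 with Trp53+/+ and 0.10 with Trp53+/-. The most abundant of these, Adar, an RNA-editing enzyme, differed by −0.03 and 0.10.

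**Figure D5:**
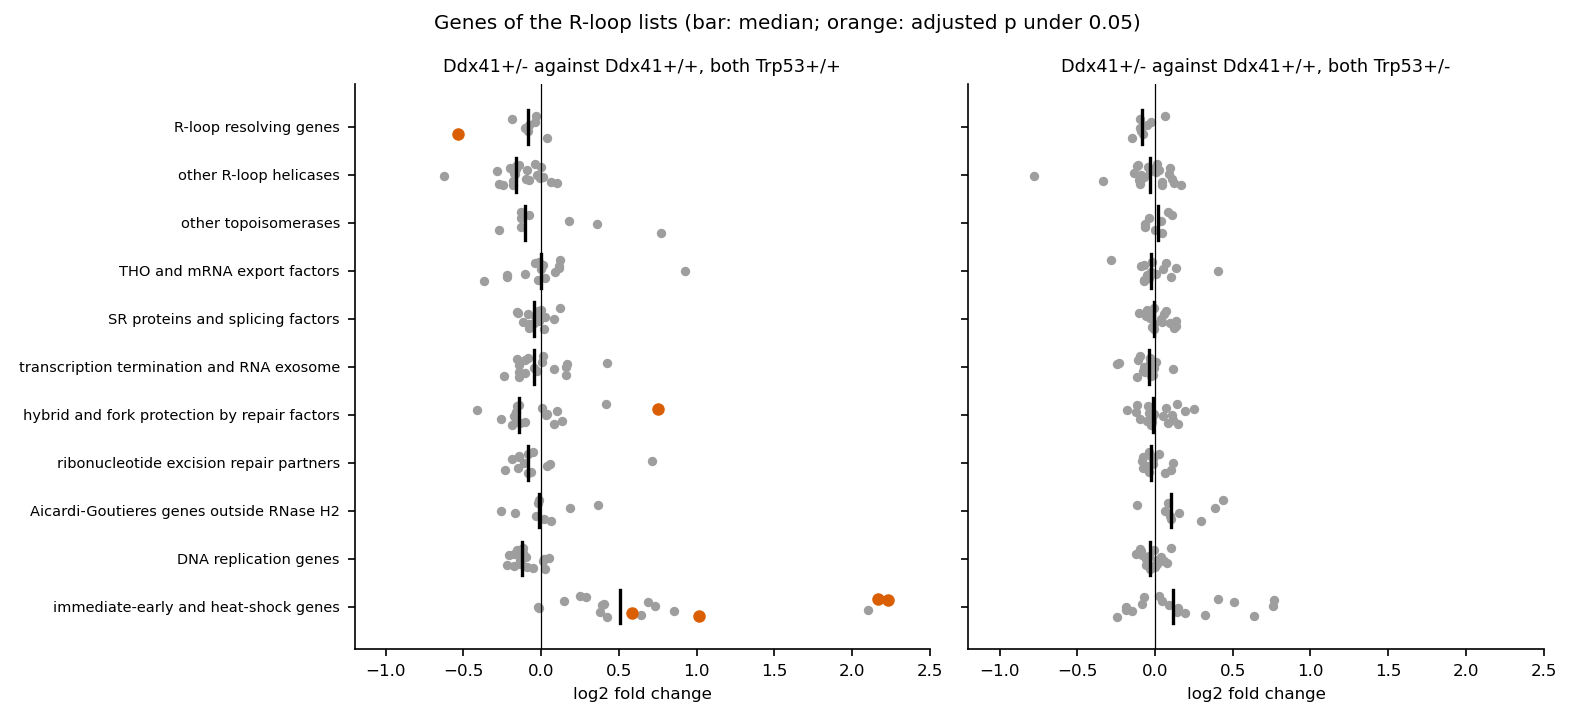
Log2 fold changes of Ddx41+/- against Ddx41+/+ (horizontal axis) for every tested gene of 11 lists, with Trp53+/+ on the left and Trp53+/- on the right; each point is a gene, black bars are list medians and orange marks an adjusted p under 0.05. Rnaseh2a is the orange point of the R-loop resolving genes (−0.53, left), and no gene of any list is orange on the right.

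Finally, for each member the genes with the most similar course over the 10 libraries were listed, as the root-mean-square difference of log2 CPM after each gene's mean was removed. For Rnaseh2a, whose own spread on that measure was 0.196, they were Mob2 (0.087) and Ncaph (0.090), a condensin subunit. Neither passed the adjusted p with Trp53+/+ (log2 fold changes −0.34 and −0.34, adjusted p = 0.0955 and 0.0720, edgeR). They were picked for following Rnaseh2a over the same libraries, so their shared direction is not a separate result. The nearest to Rnaseh1 were Sertad1 and Flot2, to Rnaseh2b Atp5h and Polr2c, to Rnaseh2c Rplp2 and Ap1b1, to Dhx9 Hnrnpf and Kif5b, to Top1 Sf3b1 and Spop, to Xrn2 Cdkn2aipnl and Ccnb1, and to Srsf1 Osbpl8 and Ezh2. The differences ranged from 0.026 for Top1 and Sf3b1, a core splicing factor, to 0.090, and the members with the smallest spread of their own also had the closest neighbours. The latter partly follows from the measure, because genes with little spread are close to one another.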

How the data were processed

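Per the submitters' processing notes, reads were checked with FastQC 0.11.7, aligned with HISAT2 2.0.5 to mm10 and counted per gene with featureCounts 1.5.2. The deposited table holds raw counts made by the authors, 1 column per mouse and 0 columns of other samples. The annotation, strand setting and multi-mapping rule are not given in the sources used here. The labels name a stranded mRNA kit, and the study's methods name a different RNA library kit without a strand statement. Which kit was used cannot be settled from these sources.

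The 10 columns were fitted together in edgeR 4.0.16 (R 4.3.3; TMM, filterByExpr by genotype, glmQLFit, glmQLFTest) with 1 mean per genotype, and additively for effects over both backgrounds. The filter removed 12575 of 24421 genes. Adjusted p is Benjamini-Hochberg over 11846 genes, and a DEG has an adjusted p under 0.05 and a change over 1.5-fold. CPM for the nearest-pattern measure used a prior count of 2. Tests were two-sided. The exact tests permuted mice on log2 CPM for single genes and on log2 ratios of counts for the subunit ratios. The fit was also run on simulated data, with no outcome reported here. No 2 libraries were alike within sampling noise. Named genes were the 8 members, Ddx41 and Trp53, the 2 nearest patterns per member, and genes that overlap or lie near a member. From each list they were drawn from the called genes, the 2 with the highest mean CPM and the 2 with the largest additive Ddx41 change. Not every gene so selected was named, and Mcm3ap, Hbb-bt and Hbb-b2 were named outside these rules. Alternatives were DESeq2 1.42.0 (and its size factors), unscaled library totals without haemoglobin genes, no filter or at least 10 counts, adjusted p alone, single pairs of genotypes and each mouse left out. The members and lists were chosen with earlier results of these data known. The promoter of Rnaseh2a is not reported here.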

Additional observations from a re-analysis of the deposited data

How the results depend on the processing

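Rnaseh2a kept its sign with Trp53+/+ in all refits, between −0.59 and −0.47. Its adjusted p, 0.0117 in the main edgeR fit, depended more on the setting. It was 9.96e-05 with DESeq2, 1.16e-04 in edgeR with no filter and 0.0420 in edgeR with only the 2 genotypes. The refits without mouse 32 or mouse 34, which left 1 mouse in the group, are described above. As log2 ratios of counts within libraries, chosen after seeing the data, the difference was −0.44 against Rnaseh2b plus Rnaseh2c, −0.44 against Rnaseh2b and −0.43 against Rnaseh2c. No paired analysis was possible because the genotypes share no replicate numbers. With adjusted p alone 1 member was called for Ddx41 with Trp53+/+ and 52 genes for Trp53 over both backgrounds. For Ddx41 with Trp53+/+, the 64 DEGs became 131 with DESeq2 and 243 with no filter, and 13 to 103 without single mice (13 without Ddx41+/- Trp53+/+ mouse 34), with 0 to 1 members called (1 without Ddx41+/+ Trp53+/+ mouse 12). For Ddx41 with Trp53+/-, 5 became 39 with no filter, 2 with at least 10 counts and 1 to 10 without single mice. For Trp53 with Ddx41+/+, 108 became 250 with no filter, 66 with only the 2 genotypes and 35 to 115 without single mice. For Trp53 with Ddx41+/-, 20 became 37 with DESeq2, 67 with no filter, 37 with only the 2 genotypes and 13 to 24 without single mice. The interaction gave 8, 29 with DESeq2, 100 with no filter and 8 to 12 without single mice. For Ddx41 over both backgrounds, 13 became 40 with DESeq2, 94 with no filter, 8 with at least 10 counts and 2 to 42 without single mice, and for Trp53, 34 became 93, 181 with no filter and 20 to 79. The Ddx41+/- groups hold 2 mice each, so leaving out 1 of them leaves 1 mouse in its group. The spread in such a refit comes from the other groups only, and its count does not measure the spread within that group. The cause of these differences was not tested. With library totals without haemoglobin genes, which took out almost no counts and left the totals unscaled, signs turned for Top1 (0.010, Ddx41 with Trp53+/-), Rnaseh1 (−0.026) and Top1 (−0.0012) for Trp53 with Ddx41+/+, Rnaseh2b (0.022, interaction), and Rnaseh2a (−0.0094) and Xrn2 (−0.0097) for Trp53 over both backgrounds. With at least 10 counts Rnaseh2b turned for the interaction (0.0033). Leaving out 1 mouse turned the sign of small log2 fold changes, whose lowest and highest values were as follows. For Ddx41 with Trp53+/+, Rnaseh1 −0.14 to 0.17, Rnaseh2c −0.29 to 0.071, Top1 −0.084 to 0.010, Srsf1 −0.11 to 0.036. For Ddx41 with Trp53+/-, Dhx9 −0.13 to 0.042, Top1 −0.086 to 0.045. For Trp53 with Ddx41+/+, Rnaseh1 −0.13 to 0.069, Rnaseh2c −0.051 to 0.024, Xrn2 −0.10 to 0.025. For Trp53 with Ddx41+/-, Rnaseh1 −0.32 to 0.0082, Rnaseh2c −0.18 to 0.18, Top1 −0.017 to 0.11, Xrn2 −0.018 to 0.19. For the interaction, Rnaseh1 −0.32 to 0.0022, Rnaseh2b −0.069 to 0.057, Rnaseh2c −0.16 to 0.19, Dhx9 −0.050 to 0.12, Top1 −0.045 to 0.086. For Ddx41 over both backgrounds, Rnaseh1 −0.14 to 0.019, Srsf1 −0.0022 to 0.059. For Trp53 over both backgrounds, Rnaseh1 −0.15 to 0.0064, Rnaseh2a −0.036 to 0.077, Rnaseh2c −0.066 to 0.040, Xrn2 −0.025 to 0.048. None of these turned values was called.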
